A study of Homo sapiens with 4 samples.

Results

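The genes described here are 9 named members of transforming growth factor beta (TGF-beta) signalling and of the matrix proteins around it, out of 58735 genes in the deposited table. They were chosen by gene symbol: the ligand TGFB2, the receptors TGFBR1 and TGFBR2, the signal transducer SMAD3, the inhibitor SMAD7, and THBS1, SPARC, FN1 and TGFBI, which encode secreted matrix or matricellular proteins. RNA was sequenced from H1299, an established human non-small-cell lung carcinoma line, in 2 ethanol control libraries and 2 libraries of cells given 0.5 mM methylparaben, an ester preservative, over 48 h. The labels name no genetic change in either group and give no exposure time for the ethanol cells. The comparison asks which RNAs differ between treated and control cells. Nothing in the labels ties the duplicates to different cultures, and the p-values then reflect the spread between these libraries alone, possibly a technical one. All libraries came from this line alone, and values per library are given in the order ethanol 1, ethanol 2, methylparaben 1, methylparaben 2.

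TGF-beta is secreted in a latent form held by a propeptide and by latent TGF-beta binding proteins in the matrix. The active ligand brings TGFBR2 to TGFBR1, and TGFBR1 then phosphorylates SMAD2 and SMAD3, which join SMAD4 and regulate genes in the nucleus. SMAD7 is an inhibitory SMAD that blocks this step at the receptor, and its gene is itself a classical target of the pathway. Matricellular proteins such as thrombospondin-1 (THBS1) and SPARC sit in the matrix and act on cells rather than building it, and thrombospondin-1 can activate latent TGF-beta. In lung carcinoma cells the pathway is best known for growth arrest and for epithelial-mesenchymal transition.

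SMAD3, THBS1 and SPARC were lower in methylparaben-treated H1299 cells, by 3.67-fold, 4.32-fold and 7.53-fold. In each of them both treated libraries lay below both control libraries. How many of all tested genes show this separation was not counted. SMAD3, THBS1 and SPARC were the 3 members of 9 with enough reads for a test, and 3 of 3 were called lower and 0 higher. Among all 8055 genes tested, 36.9% were called, 18.4% lower and 18.5% higher, at an adjusted p under 0.05 in edgeR's quasi-likelihood test. The median log2 fold change was -2.11 over the 3 tested members and 0.03 over all genes tested. The members were chosen with earlier results of these data known, so this contrast and the 3 of 3 are descriptions and not a test. The other 6 members, TGFB2, TGFBR1, TGFBR2, SMAD7, FN1 and TGFBI, had 0 to 31 reads over the 4 libraries and did not pass the filter on low counts. SPARC entered the test through its control libraries, since 2 ethanol libraries and 1 methylparaben library reached the 4.39 CPM (counts scaled to the library total) that the filter asks of 2 libraries. SMAD3 and THBS1 reached it in all 4. In bulk RNA, fewer cells with a transcript and less of it per cell cannot be told apart.

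Library totals ran from 2068486 to 3760982 counts. A library with 0 counts for a gene allows up to 0.798 to 1.45 CPM, taking 3 counts as the limit, and this covers counting error only. Replicate counts differed by more than sampling noise (chi-square over its degrees of freedom, 5.34 in ethanol and 13.5 in methylparaben). Of 9 carcinoma-line markers 6 had reads, with summed levels of 1204 and 1302 CPM in ethanol and 701 and 539 CPM in methylparaben, and their part in the members' values was not tested. The epithelial markers KRT19, EPCAM and CDH1 were at 0, while KRT8, KRT18 and VIM were read in all libraries. Fibroblasts are the usual source of abundant SPARC and FN1 RNA in tissue. Their markers summed to 2.96 and 10.5 CPM in ethanol and 1.06 and 2.90 CPM in methylparaben, with 6 of 10 read. PDGFRA had 4, 14, 4 and 0 counts and COL1A1 had 2, 6, 0 and 2, COL3A1, DCN, PDGFRB and FAP had 3 or fewer in any library, and COL1A2, LUM, THY1 and PDPN were at 0. The part of these markers in the fall of SPARC was not tested. None of 10 blood and immune markers was read, and 1 of 6 endothelial markers was, at 0 and 0 CPM in ethanol and 0.532 and 0.483 CPM in methylparaben. How much of each marker gene could be counted, as described below for the members, was not assessed. A marker at 0 is therefore not shown to be absent.

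How far each member could be measured depended on its gene model. The deposited counts are per transcript, and they hold reads only on bases that belong to 1 annotated transcript. The 9 genes have 98 annotated transcripts, of which 37 have no such base and 15 had reads. SMAD3 and THBS1 could be read on 68.1% and 70.5% of their exonic bases, and SPARC, SMAD7 and FN1 on 50.5%, 46.3% and 45.3%. For TGFB2, TGFBR2 and TGFBR1 the share was 2.80%, 3.87% and 10.3%. TGFBI had 54.4%, but 3739 of those 4248 bases lie in retained-intron transcripts and 297 in protein-coding ones. A level near 0 in these last 4 genes therefore does not say that the gene is silent. Of the 2228 reads on members, 2165 were on SMAD3, THBS1 and SPARC.

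**Figure D1:**
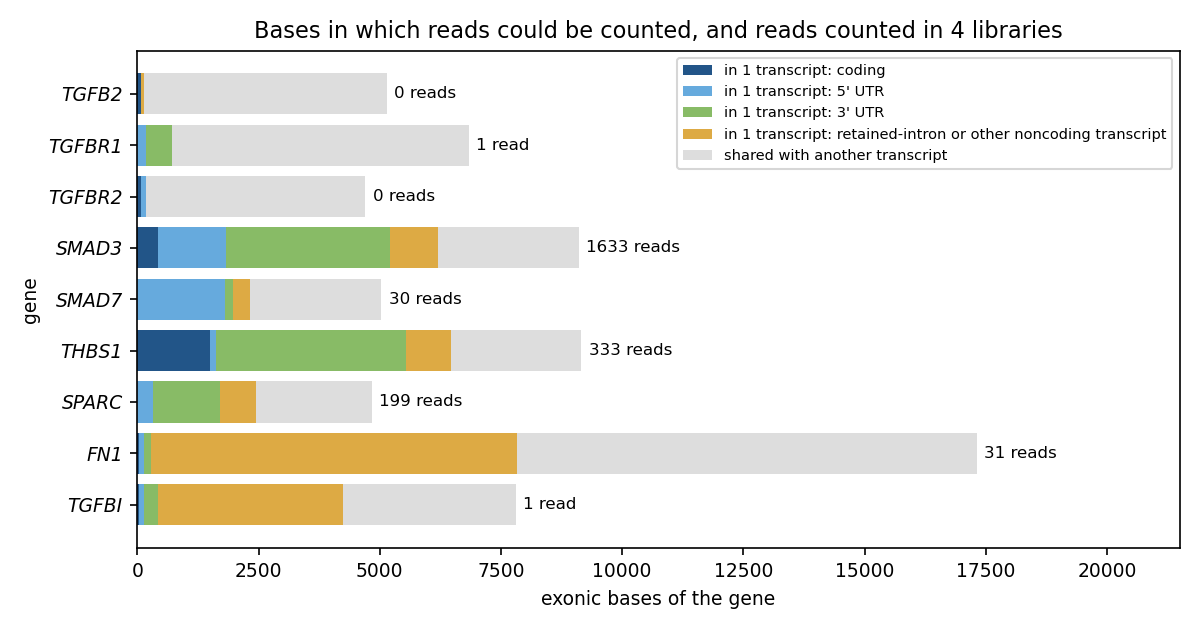
Exonic bases of each of the 9 genes on the x axis, with bases that belong to 1 transcript coloured by the part they belong to and shared bases in grey, and the reads counted over the 4 libraries beside each bar. SMAD3 has 6204 countable bases and 1633 reads, TGFB2 has 144 countable bases and 0 reads, and nearly all of the 7839 countable bases of FN1 are in retained-intron transcripts.

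TGFB2 encodes a TGF-beta ligand (chr1:218346235-218444619, GRCh38, plus strand). It had 0 reads in every library on its 144 countable bases. That allows up to 4.47 CPM per kb of countable bases (CPM per kb) over the ethanol group and 3.73 over the methylparaben group. TGFBR2, the type II receptor kinase that binds the ligand first (chr3:30606502-30694142, plus strand), also had 0 reads, on 182 bases, with limits of 3.54 and 2.95 CPM per kb. TGFBR1, the type I kinase that passes the signal to the SMADs (chr9:99104038-99154192, plus strand), had 0, 0, 1 and 0 reads on 706 bases, and its 0 reads in ethanol allow up to 0.912 CPM per kb. The ethanol limits of TGFB2 and TGFBR2 lie below the mean control levels of THBS1 and SPARC, 8.72 ± 1.82 and 14.996 ± 3.91 CPM per kb (SD, n = 2), and their methylparaben limits lie above the mean treated levels of both. Levels and changes below these limits were not detectable at this depth. The SPARC level here divides by all countable bases of the gene. On the 1392 bases of SPARC-201, which held all SPARC reads, methylparaben 1 and 2 were at 4.30 and 2.26 CPM per kb. The first lies above the methylparaben limits of TGFB2 and TGFBR2, and the second lies below them. The limits cover short stretches only: 84 bases of TGFB2-201 and 60 of TGFB2-204, and 99 of TGFBR2-201 and 83 of TGFBR2-202. Whether a read reaching from such a stretch into shared bases was counted is not known. The limits therefore do not bound the level of either gene, and TGFB2 and TGFBR2 are not ranked against THBS1 and SPARC.

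SMAD3 carries the receptor signal to the nucleus, and SMAD7 opposes it. The ends of their coding sequences are shown because the 2 proteins differ there in what the receptor acts on: TGFBR1 phosphorylates a receptor-activated SMAD on serines at its very C-terminus, and an inhibitory SMAD has no such tail. Each line gives the last 30 coding bases before the stop codon, 5′ to 3′ on the gene's strand, from GENCODE release 29 transcripts, with serine codons in capitals. The SMAD3-201 bases are at chr15:67190504-67190533 (GRCh38, plus strand) and the SMAD7-201 bases at chr18:48921375-48921404 (minus strand).
SMAD3-201: TCCccaAGCatccgctgtTCCAGTgtgTCT
SMAD7-201: tgctggctagaggtcatcttcaacAGCcgg
Serine is encoded by 5 of the last 10 codons of SMAD3-201, which ends in serine, serine, any residue, serine, and by 1 of the last 10 codons of SMAD7-201. The SMAD3 bases are shared by 6 transcripts of the gene and the SMAD7 bases by 4, so neither stretch could receive a counted read.

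SMAD3 (ENSG00000166949.15, chr15:67063763-67195195, plus strand) had 672, 572, 228 and 161 counts, or 286, 248, 62.0 and 84.3 CPM. Both treated libraries lay well below both controls, with no overlap. The mean fell from 267 ± 27.0 CPM (SD, n = 2) to 73.1 ± 15.7 CPM (SD, n = 2), a log2 fold change of -1.88 ± 0.21 (SE) with an edgeR adjusted p of 0.00025. The reads were nearly all on the main coding transcript SMAD3-201, with 1632 of 1633. Its 3882 countable bases are 86.7% 3′ UTR, 7.99% 5′ UTR and 5.31% coding sequence, so the value mainly measures the 3′ UTR of that transcript. Tested as a transcript, SMAD3-201 was at -1.90 ± 0.21 with an edgeR adjusted p of 0.000207, and the authors' deposited table lists its adjusted p as 0.

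SMAD7 (ENSG00000101665.9, chr18:48919853-48952052, minus strand) had 2, 10, 10 and 8 counts, or 0.851, 4.33, 2.72 and 4.19 CPM. Ethanol 1 was the lowest and ethanol 2 the highest library, so the 2 groups overlapped. The 12 control and 18 treated counts gave a ratio of methylparaben over ethanol of 1.25, with an exact binomial 95% interval of 0.570 to 2.85 that covers counting error only. SMAD7 was not tested in the main analysis. With no filter on low counts its log2 fold change was 0.38 ± 0.86 with an adjusted p of 0.804. Over the 4 alternatives that tested it the adjusted p ran from 0.719 to 0.961, and the direction turned to -0.38 without ethanol 1. Of its 30 reads 29 were on SMAD7-201, whose 1802 countable bases are 90.3% 5′ UTR. The interval of the ratio covers both a fall and a rise.

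THBS1 encodes thrombospondin-1, a secreted matricellular glycoprotein that binds latent TGF-beta and is itself a TGF-beta-responsive gene. THBS1 (ENSG00000137801.10, chr15:39581079-39599466, plus strand) had 152, 111, 40 and 30 counts, or 64.6, 48.0, 10.9 and 15.7 CPM. The lowest control library was above the highest treated one. The mean fell from 56.3 ± 11.7 to 13.3 ± 3.41 CPM (SD, n = 2 per group), with a log2 fold change of -2.11 ± 0.32 and an edgeR adjusted p of 0.00117. The coding transcript THBS1-201 held 319 of 333 reads, as 148, 110, 31 and 30, on 5410 countable bases that are 72.4% 3′ UTR and 27.6% coding. As a transcript it was at -2.27 ± 0.36, with an edgeR adjusted p of 0.00132. In the authors' deposited table its adjusted p was 1e-09.

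The call for THBS1 depended on the unit. On the deposited FPKM values summed per gene, the log2 fold change was -1.14 with a pseudocount of 1 (limma adjusted p = 0.135) and -1.37 with a pseudocount of 0.1 (limma adjusted p = 0.152). FPKM divides each transcript by its own length, and the retained-intron transcript THBS1-208 is only 537 bases long. Its 4, 0, 9 and 0 reads became 3.08, 0, 4.41 and 0 FPKM in the authors' deposited table, beside 7.87, 6.22, 1.05 and 1.89 FPKM for THBS1-201. With retained-intron transcripts left out of the counts, THBS1 was at -2.16 with an edgeR adjusted p of 0.00215. The FPKM values were not fitted without these transcripts, so the part of THBS1-208 in the lost call was not tested. Over 17 alternatives the adjusted p of THBS1 ran from 1.77e-08 to 0.152.

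SPARC, or osteonectin, is a secreted collagen-binding glycoprotein that loosens cell attachment to the matrix. SPARC (ENSG00000113140.10, chr5:151661096-151687165, minus strand) had 102, 69, 22 and 6 counts, or 43.4, 29.9, 5.99 and 3.14 CPM. Both treated libraries were low, and methylparaben 2 was the lowest. The mean fell from 36.6 ± 9.56 to 4.56 ± 2.01 CPM (SD, n = 2 per group), with a log2 fold change of -2.91 ± 0.42 and an edgeR adjusted p of 0.000839. Only 28 reads support the treated level. The size depended on 1 library: without methylparaben 1 the fall was 11.5-fold and without methylparaben 2 it was 5.95-fold, and SPARC was called in both. On summed FPKM with a pseudocount of 1 it was 4.98-fold. All 199 reads were on SPARC-201, whose 1392 countable bases are all 3′ UTR. That transcript was at -2.94 ± 0.42 with an edgeR adjusted p of 0.000764, and the authors' deposited table lists 1.5e-08.

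FN1 encodes fibronectin, a structural matrix glycoprotein and a common marker of mesenchymal state. FN1 (ENSG00000115414.18, chr2:215360440-215436172, minus strand) had 7, 9, 10 and 5 counts, or 2.98, 3.90, 2.72 and 2.62 CPM. Both treated libraries lay just below both controls, at a few reads each. All of its 31 reads were on retained-intron transcripts. Only 289 of its 7839 countable bases belong to its 13 coding transcripts, so these values do not measure fibronectin mRNA. The 16 control and 15 treated counts gave a ratio of 0.782 with a 95% interval of 0.360 to 1.69, so this difference was not detectable at this depth. With no filter the log2 fold change was -0.35 ± 0.84, with an adjusted p of 0.821. TGFBI, a secreted adhesion protein named for its induction by TGF-beta (chr5:136028895-136063818, plus strand), had 0, 1, 0 and 0 reads, and the single read was on a retained-intron transcript. Its 0 reads in methylparaben allow up to 0.126 CPM per kb, mostly for intron-retaining RNA.

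Compared per kilobase of countable bases, SMAD3 had the highest level in both groups, at 46.1, 39.9, 9.999 and 13.6 CPM per kb. SPARC came next in ethanol, at 17.8 and 12.2, above THBS1 at 10.01 and 7.44. SMAD7 followed at 0.365 and 1.86. FN1, whose reads measure retained-intron transcripts and are not ranked as an mRNA level, was at 0.380 and 0.497. SPARC and THBS1 did not overlap in ethanol, with 2 libraries each. In methylparaben the order below SMAD3 was no longer resolved: SPARC was at 2.45 and 1.29, THBS1 at 1.68 and 2.43, and SMAD7 at 1.17 and 1.80. FN1 was at 0.347 and 0.334, on retained-intron transcripts. Mean levels in treated cells were 11.8 ± 2.53 for SMAD3, 1.87 ± 0.824 for SPARC, 2.06 ± 0.527 for THBS1 and 1.48 ± 0.445 for SMAD7 (SD, n = 2).

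**Figure D2:**
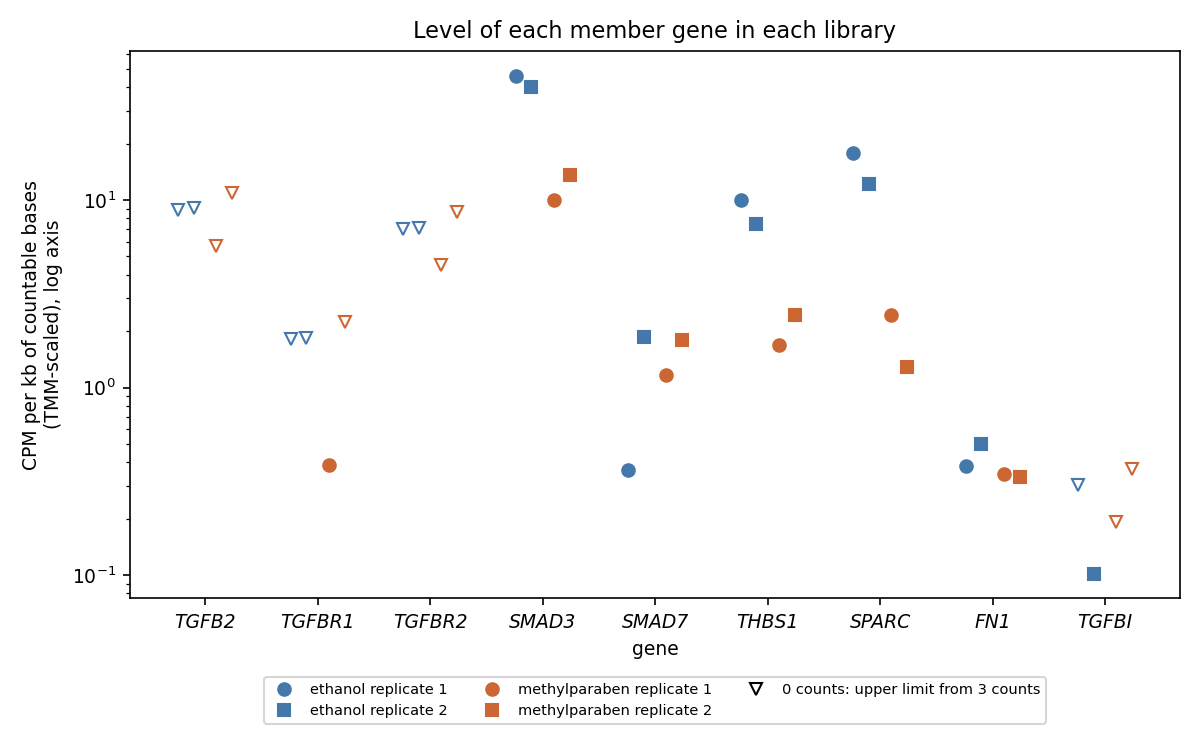
Level of each gene in each of the 4 libraries, in CPM per kb of countable bases on a log axis, with ethanol in blue and methylparaben in orange, circles for replicate 1 and squares for replicate 2, and open triangles for the limit that a count of 0 allows. SMAD3, THBS1 and SPARC have both treated points under both control points, SMAD7 overlaps between groups, the FN1 points lie close together, and the limits of TGFB2 and TGFBR2 lie above the treated levels of THBS1 and SPARC.

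The size of the fall differed little between SMAD3 and THBS1, whose log2 fold changes differed by less than the SE of THBS1, and it was larger for SPARC. This order of sizes was not tested. Among the 1485 genes called lower, 63.7% fell by less than SMAD3, 71.9% by less than THBS1 and 87.9% by less than SPARC. Over the 4 libraries, the distance between the centred log2 CPM profiles of SMAD3 and THBS1 was 0.225, and 22 of 5698 genes were nearer to SMAD3. SPARC was 1.32 from SMAD3 and 1.22 from THBS1. The genes nearest to SMAD3 were NUDT9, which encodes a nucleotide hydrolase, at 0.0544, and SIN3A, a corepressor scaffold, at 0.0767. Those nearest to THBS1 were PIGP, a subunit in glycosylphosphatidylinositol anchor synthesis, at 0.155, and the autophagy gene ATG10 at 0.182. Nearest to SPARC were the mitochondrially encoded ATP synthase gene MT-ATP8 at 0.138 and the noncoding RNA LINC00920 at 0.243. The log2 CPM of these profiles include edgeR's prior count, which shrinks differences between libraries most in genes with few reads. In methylparaben NUDT9 had 6 and 5 reads, SIN3A 18 and 13, PIGP 4 and 4, ATG10 7 and 7, and LINC00920 7 and 2. Which genes are nearest without the prior count was not computed. These distances describe 4 points that share the same libraries and groups.

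The promoters of THBS1 and SMAD3 are shown because both genes fell and SMAD proteins bind DNA through a short element. SPARC fell too, but all 250 bases of its window lie in an annotated SPARC exon, so it is not printed; it holds 0 matches to either motif. Each line is the 250 bases before a RefSeq transcription start (GRCh38.p14), 5′ to 3′ on the gene's strand, with any SMAD binding element core CAGAC or AP-1 site TGACTCA, on either strand, in capitals. The motifs do not overlap in these windows. RefSeq windows matched all 9 genes, and the windows shown are the ones nearest the 5′ end of the transcript that was read. The THBS1 window is chr15:39580829-39581078 and the SMAD3 window chr15:67065352-67065601, both on the plus strand.
THBS1: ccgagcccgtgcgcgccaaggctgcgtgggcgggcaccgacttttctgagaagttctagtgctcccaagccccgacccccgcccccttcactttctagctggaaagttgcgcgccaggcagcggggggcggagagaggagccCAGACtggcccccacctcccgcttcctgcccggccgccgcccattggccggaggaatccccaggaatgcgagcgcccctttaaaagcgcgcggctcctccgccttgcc
SMAD3: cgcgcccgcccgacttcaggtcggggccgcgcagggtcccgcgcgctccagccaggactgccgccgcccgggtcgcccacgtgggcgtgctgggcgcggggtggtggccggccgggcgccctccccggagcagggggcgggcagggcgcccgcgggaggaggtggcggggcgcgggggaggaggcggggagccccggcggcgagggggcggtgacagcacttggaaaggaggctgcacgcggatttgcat
THBS1 has 1 CAGAC in this window and SMAD3 has none, and neither has an AP-1 site. The SMAD element occurs in 38% of 35116 promoter windows of this length and the AP-1 site in 4.2%. GC content was 69.6% for THBS1 and 80.8% for SMAD3, against a median of 58.0% over all windows. A match is a description of letters and not a measured binding site.

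Other genes of the pathway were called in both directions. Of 111 genes in 7 lists of roles, 32 were tested, 9 were called lower and 5 higher, and their median log2 fold change was -0.30. The 14 called are 43.8% of those tested, near the 36.9% of all genes. The other 79 had too few counts, 36 of them with 0. Some of the 14 called genes lost their call when a library was left out, as given below, and all 14 kept their direction. The same shares over all called genes were not counted.

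Of 12 ligands 4 were tested, and TGFB1, the best known TGF-beta ligand, rose from 11.9 and 13.9 to 23.4 and 52.3 CPM, with a log2 fold change of 1.52 ± 0.42 and an edgeR adjusted p of 0.0184. Its call was lost without ethanol 1 (adjusted p = 0.0894) or methylparaben 2 (adjusted p = 0.0903), which moved the log2 fold change to 0.89, while without methylparaben 1 it was 2.01. Over 17 alternatives its adjusted p ran from 1.46e-06 to 0.0903. BMP2, BMP6 and GDF11 were not called, at 0.54, 0.75 and -0.81. Of 12 genes for the latent complex and its activation, 3 were tested and 2 were lower. LTBP2, a latent TGF-beta binding protein family member of the matrix, fell from 113 and 114 to 16.6 and 18.8 CPM, a log2 fold change of -2.69 ± 0.24 with an edgeR adjusted p of 0.000103. LTBP3, which holds latent TGF-beta, had 19, 12, 2 and 1 counts, with an edgeR adjusted p of 0.00633. The ratio of its counts was 0.0808 with a 95% interval of 0.0158 to 0.259. Only its ethanol libraries reached the filter level, so LTBP3 entered the test through the group where it was high. Its call was lost without ethanol 1 (adjusted p = 0.188) or ethanol 2 (adjusted p = 0.0556), the lowest value over 15 alternatives being 0.0031, and 55.9% of its reads were on retained-intron transcripts. The microfibril gene FBN1 was not called, at -0.47.

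Of 10 receptor genes 3 were tested, and the activin type II receptor gene ACVR2B rose from 45.9 and 72.7 to 161 and 117 CPM. Its log2 fold change was 1.23 ± 0.27 with an edgeR adjusted p of 0.0064, or 0.0631 without ethanol 1, and between 8.63e-08 and 0.0907 over 17 alternatives. ACVR1B, an activin type I receptor, was at 0.86 ± 0.31 with an adjusted p of 0.0547. BMPR1A, a BMP type I receptor, was at -0.36 and was not called. Of 6 other SMAD genes, SMAD2 and SMAD4 were tested. SMAD2, the close relative of SMAD3 in this signal, was at 26.4, 28.1, 23.4 and 20.4 CPM, a log2 fold change of -0.31 with an adjusted p of 0.457, and its sign turned on the FPKM values. SMAD4, the shared partner, rose from 35.7 and 26.8 to 63.4 and 56.5 CPM, at 0.94 ± 0.27 with an edgeR adjusted p of 0.0207. Of its reads 89.9% were on retained-intron transcripts, and without those the log2 fold change was 0.99 ± 0.70, as large, with an adjusted p of 0.302. Without ethanol 2 it was 0.137, and the lowest value over 17 alternatives was 0.00407.

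Of 23 regulators of receptors and SMADs 12 were tested, with 3 lower and 1 higher. SMURF2, a ubiquitin ligase that SMAD7 brings to the receptor, fell from 312 and 367 to 58.2 and 48.7 CPM, at -2.66 ± 0.20 with an edgeR adjusted p of 3.88e-05, and 98.3% of its reads were on a nonsense-mediated decay transcript. TGIF1, a corepressor of SMAD target genes, rose from 68.0 and 69.3 to 230 and 214 CPM, at 1.69 ± 0.18 with an edgeR adjusted p of 0.000224. HIPK2, a nuclear kinase that works with SMAD corepressors, fell from 215 and 257 to 92.2 and 100 CPM, at -1.29 ± 0.19. The corepressor SKIL was the other called gene, at -0.59 with an adjusted p of 0.0319, and was named after its values were seen. It was lost without ethanol 1 (adjusted p = 0.0875), ethanol 2 (0.23) or methylparaben 2 (0.13), with the replicate block (0.0784), in DESeq2 (0.0524) and with no filter (0.0713). Without retained-intron transcripts it was 0.0589, and on the FPKM values 0.194 and 0.187. The lowest value over 17 alternatives, 0.0136, came from the crossed block added after seeing the data.

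Of 24 target genes 7 were tested, with 4 lower and 1 higher. CTGF, a matricellular growth factor gene, fell from 1365 and 1549 to 145 and 139 CPM, at -3.36 ± 0.18 with an edgeR adjusted p of 8.6e-06. CDKN2B, a cyclin-dependent kinase inhibitor induced by TGF-beta, fell from 186 and 229 to 90.1 and 59.1 CPM, at -1.46 ± 0.23, and LTBP2 is the third. LOX, which crosslinks collagen, was named after its values were seen. It rose from 4.25 and 1.73 to 12.5 and 10.99 CPM, with an edgeR adjusted p of 0.0218. Only its methylparaben libraries reached the filter level, so LOX entered the test through the group where it was high. Its call was lost without ethanol 2 (adjusted p = 0.12) or methylparaben 1 (adjusted p = 0.0792), and its lowest value over 17 alternatives was 0.0114. JUNB and LIF were not called, at -0.48 and -0.28, and neither sign held: without methylparaben 1 JUNB was at 0.23, and with a library left out LIF reached 0.30.

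Of 26 relatives of the matricellular members 3 were tested, and CYR61 and CTGF were lower. CYR61, an integrin-binding matricellular protein gene, fell from 904 and 934 to 254 and 328 CPM, at -1.66 ± 0.18 with an edgeR adjusted p of 0.000228. NOV, of the same family, was at 87.6, 92.6, 121 and 98.4 CPM, at 0.29 with an adjusted p of 0.294. The thrombospondin and SPARC relatives in this list were not tested, having too few counts. THBS1 and SPARC fell by sizes between those of CYR61 and CTGF.

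**Figure D3:**
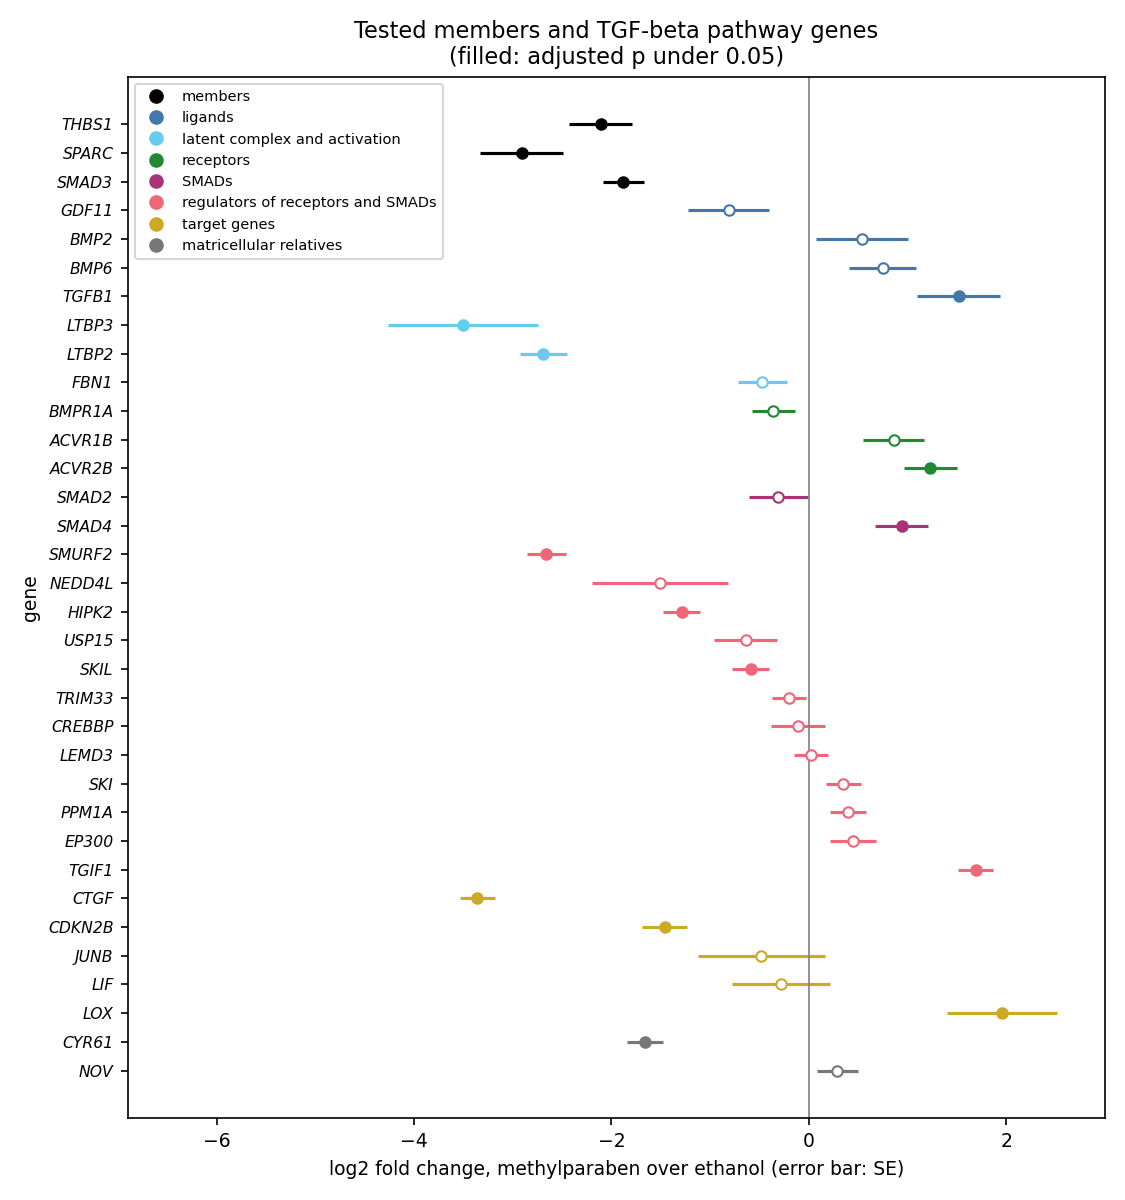
Log2 fold change of methylparaben over ethanol for the 3 tested members and the tested pathway genes reported here, with SE bars, coloured by role and filled where the edgeR adjusted p is under 0.05. SMAD3, THBS1 and SPARC lie left of 0 with LTBP2, SMURF2, CTGF and CYR61, while TGFB1, ACVR2B, SMAD4, TGIF1 and LOX lie right of it.

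Under 17 alternatives SMAD3 kept its call, with an adjusted p of 1.2e-14 to 0.0123, and so did SPARC, with 1.08e-09 to 0.0175. Without each library in turn SMAD3 was between -2.07 and -1.67, THBS1 was between -2.34 and -1.85, and SPARC between -3.53 and -2.57. All 3 stayed called in these fits. In a fit that leaves out a library, the lone library of that group is taken to vary like the other group.

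**Figure D4:**
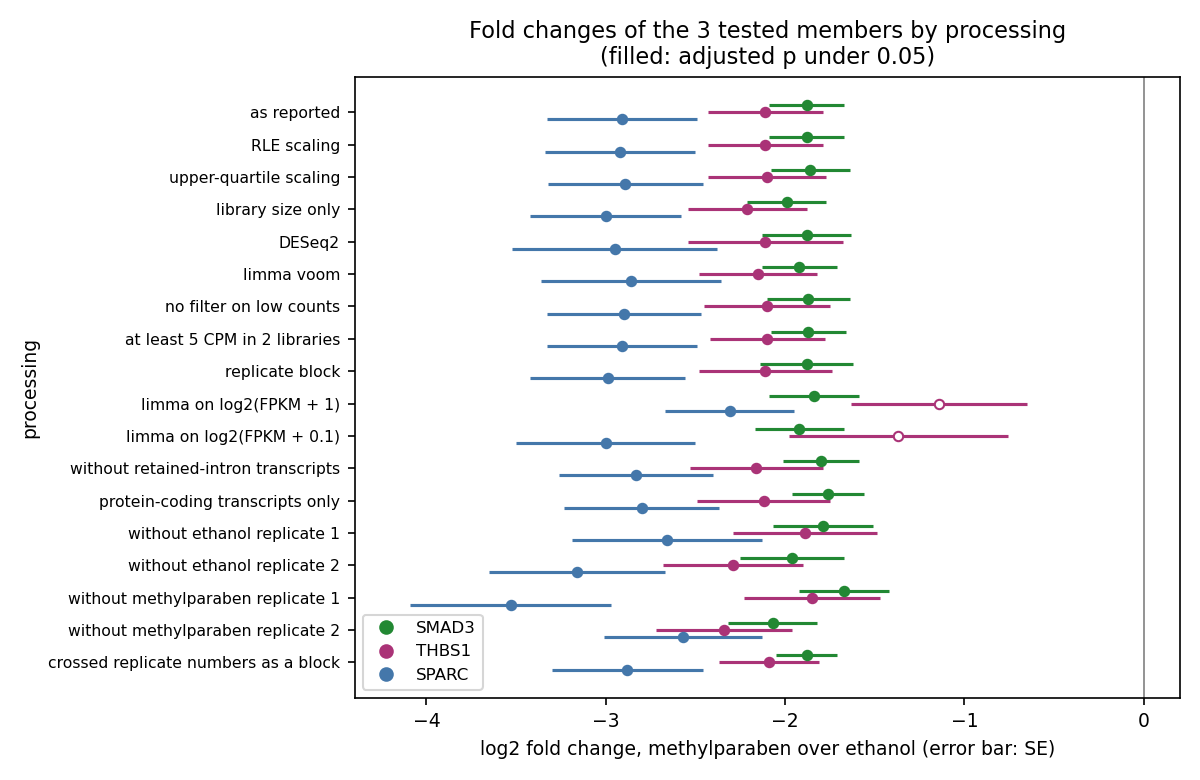
Log2 fold change of SMAD3, THBS1 and SPARC with SE bars under the reported analysis and 17 alternatives, filled where the adjusted p is under 0.05. Every point lies left of 0, and the 2 open points are THBS1 on the FPKM values, at -1.14 and -1.37.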

How the data were processed

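Poly(A) RNA of 4 H1299 libraries was measured, 2 per group. The authors deposited raw read counts per transcript, for 206601 transcripts of 58735 genes, all at GENCODE release 29 coordinates on GRCh38. Aligner and counter: not given in the sources used here. The submitters' processing notes list GRCh38, DESeq2, limma and edgeR without roles. The deposited FPKM values can be computed from these counts with a library size 1.02, 1.04, 1.01 and 0.985 times the count total. Per the file headers, other deposited columns hold log2 of FPKM plus 1, and the authors' table lists p-values, raw and adjusted, per transcript.

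The 70749 transcripts without a base of their own had 0 reads. Counts were summed per gene, filtered with filterByExpr (minimum count 10, minimum total 15), TMM-scaled and tested two-sided by quasi-likelihood in edgeR 4.0.16 (R 4.3.3). The threshold was 0.05 after Benjamini-Hochberg adjustment across 8055 genes. CPM are TMM-scaled for genes and unscaled for marker sums, and the SE comes from the F statistic. Only the edgeR quasi-likelihood test was tried on simulated counts, drawn with the same dispersion for every gene. Library totals and the limits they set stand in the report. Alternatives were 3 other scalings, DESeq2 1.42.0, limma 3.58.1 (voom, and log2 FPKM with pseudocounts of 1 and 0.1), no filter or at least 5 CPM in 2 libraries, leaving out retained-intron or noncoding transcripts, the replicate number as a block, and leaving out each library.

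The members, the role lists and the markers (carcinoma line, fibroblast, blood and immune, endothelial) were chosen with earlier results of these data known. Named were all members and up to 3 called genes per role list by smallest p. For each of the 3 most abundant tested members, the 2 genes with the nearest log2 CPM profile were named too. They were taken among genes with a mean of at least 5 CPM, and the log2 CPM include edgeR's prior count. Same-numbered libraries did not deviate together (correlation -0.150 over 8055 genes, which are not independent), so no pairing was used. No protein sequences were used here. 1 gene of the role lists enters the counts and is not reported here.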

Additional observations from a re-analysis of the deposited data

How the results depend on the processing

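The 3 tested members kept their direction in all 51 values from 17 alternatives and their call in 49, the exceptions being THBS1 on log2 FPKM with a pseudocount of 1 (-1.14) and of 0.1 (-1.37). The number of genes called, 2976, was 1899 on log2 FPKM with a pseudocount of 0.1 and 1867 with protein-coding transcripts only, and between 1677 and 3095 with a library left out, the lowest without ethanol 1. Called pathway genes, 14, numbered 9 on log2 FPKM with a pseudocount of 0.1 and between 10 and 16 with a library left out. Of 184 values for the 11 pathway genes named by rule, 169 kept their call, 15 lost it and 0 reversed. Scaling by library size only moved the median over all genes by -0.11 on the log2 scale, with SMAD3 at -1.99, THBS1 at -2.21 and SPARC at -3.0. With the replicate number as a replicate block 2488 genes, 13 pathway genes and all 3 members were called. With the numbers crossed, an alternative added after seeing the data, the counts were 3292, 15 and 3. Depth and shared bases kept 6 of 9 members out of the test, and SPARC in treated cells rests on 28 reads.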

Other observations

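The reads of the retained-intron transcript THBS1-208 came from replicate 1 of each group, with 4 in ethanol 1 and 9 in methylparaben 1 and 0 in both replicates numbered 2. The remaining THBS1 read outside THBS1-201 was on THBS1-204, in ethanol 2. In the authors' deposited table, the member transcripts with reads other than SMAD3-201, THBS1-201 and SPARC-201 had adjusted p between 0.837 and 0.904.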
